A study of Mus musculus with 17 samples.

Results

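The transcripts described here encode the Sec61 translocon and the proteins that work at its side in the membrane of the endoplasmic reticulum (ER). The 10 genes are Sec61a1, Sec61b, Sec61g, Sec62, Sec63, Ssr1, Ssr2, Ssr3, Ssr4 and Tram1, out of 12989 genes named on the array. They were chosen by symbol, and every probe that the platform annotation assigns to one of them was read, which gave 19 probes. Transcript levels were read with Illumina MouseWG-6 v2 BeadChips in antibody-secreting cells (ASCs) sorted from mouse bone marrow, in 9 young samples (6 to 8 weeks of age) and 6 aged samples (over 17 months), and the comparison asked how ASCs differ with age. No genotype or treatment is given for either group, and the strain of the mice on the arrays is not given in the sources used here. The GEO labels call the cells B cells, and the methods describe ASCs sorted for surface markers that include CD138. Cells came from single mice or from pools, and which samples are pools is not given. The study names more aged mice than there are aged samples, so pooling and age cannot be told apart.

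The Sec61 complex is the channel through which newly made proteins enter the ER. Sec61a1 encodes the subunit that forms the pore, and Sec61b and Sec61g encode its small partners. Sec63 brings the chaperone BiP to the channel and acts with Sec62. The translocon-associated protein (TRAP) complex, made of the products of Ssr1, Ssr2, Ssr3 and Ssr4, sits beside the channel and helps proteins with weak signal sequences to enter. Tram1 encodes another membrane protein that contacts the entering chain. An ASC passes large amounts of immunoglobulin through this gate, and Xbp1, a transcription factor of the ER stress response, is known to raise many genes of this machinery when B cells become plasma cells.

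Promoters of 7 of the 10 genes were found in a RefSeq table (build GRCm38.p6), each reaching from 250 bases before to 50 bases after the annotated start. Those of Sec61a1, Ssr2 and Tram1 were not used here. The windows were searched on both strands for the ER stress elements ERSE (CCAAT and CCACG with 9 bases between them) and ERSE-II (ATTGG and CCACG with 1 base between them), for the element UPRE (TGACGTGG), and for the shorter strings CCACG and ACGTG, of which the first lies within both ERSE elements and the second within UPRE. A full ERSE, ERSE-II or UPRE was found in 0 of the 7 windows, and these occur in 0.119%, 0.0365% and 0.676% of all 32851 promoter windows. CCACG was present in 3 of 7 (Sec63, Ssr1 and Ssr3), against 32.8% of all windows. ACGTG was present in 4 of 7 (Sec62, Sec63, Ssr1 and Ssr3), against 19.6% of all windows. With both strands read, the strings overlap wherever CCACGT occurs, as it does within UPRE, so the 2 counts are not separate. Either string was present in 4 of 7, against 40.4% of all windows. Shown here are Ssr4, the gene with the clearest difference with age, then Sec63 and Sec62, the next in size, and Ssr1, a TRAP gene with a small difference whose window holds both strings. Each runs 5′ to 3′ in the direction of the gene, and capitals mark CCACG or ACGTG on either strand.
Ssr4 (chrX:73786773-73787072, plus strand): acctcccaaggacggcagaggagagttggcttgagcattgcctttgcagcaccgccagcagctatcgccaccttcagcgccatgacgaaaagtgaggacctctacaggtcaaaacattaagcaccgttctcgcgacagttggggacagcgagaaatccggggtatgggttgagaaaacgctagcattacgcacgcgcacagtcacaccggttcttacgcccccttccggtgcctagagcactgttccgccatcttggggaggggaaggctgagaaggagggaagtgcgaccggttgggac
Sec63 (chr10:42761246-42761545, plus strand): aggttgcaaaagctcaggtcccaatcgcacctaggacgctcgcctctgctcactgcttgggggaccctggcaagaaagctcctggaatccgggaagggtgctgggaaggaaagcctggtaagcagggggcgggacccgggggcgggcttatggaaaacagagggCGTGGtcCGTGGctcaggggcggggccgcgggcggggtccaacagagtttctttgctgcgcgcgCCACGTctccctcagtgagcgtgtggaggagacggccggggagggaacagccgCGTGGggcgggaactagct
Sec62 (chr3:30792626-30792925, plus strand): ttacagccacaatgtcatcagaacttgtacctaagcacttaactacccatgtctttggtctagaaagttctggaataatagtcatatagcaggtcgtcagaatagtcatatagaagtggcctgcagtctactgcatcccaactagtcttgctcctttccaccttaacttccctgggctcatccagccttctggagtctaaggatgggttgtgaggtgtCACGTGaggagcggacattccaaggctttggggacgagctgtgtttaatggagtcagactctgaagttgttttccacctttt
Ssr1 (chr13:37994159-37994458, minus strand): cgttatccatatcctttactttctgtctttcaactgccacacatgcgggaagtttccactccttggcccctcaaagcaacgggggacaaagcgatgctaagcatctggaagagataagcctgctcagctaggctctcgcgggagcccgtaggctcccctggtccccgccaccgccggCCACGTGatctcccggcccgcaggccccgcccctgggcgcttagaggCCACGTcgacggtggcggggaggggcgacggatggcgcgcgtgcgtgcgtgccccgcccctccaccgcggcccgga
The window of Ssr4 holds neither string, and those of Sec61b and Sec61g hold neither as well. Ssr4 starts close to Idh3g, a mitochondrial enzyme gene that runs the opposite way, so that 225 bases of the 2 genes' windows are shared. A match is a description of the letters only.

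Aged ASCs had more Ssr4 transcript than young ASCs, and Ssr4 was the 1 gene of the translocon and TRAP set that passed the test. Its product is the delta subunit of TRAP. Sec62, Sec63 and Sec61g had higher means in the aged but did not pass after adjustment. The mean differences of Sec61a1, Ssr1 and Ssr2 were small, with intervals that reached from decreases to increases, so these genes were not shown to be level. Sec61a1 was also dim. Of the 10 genes, 9 had a probe bright enough to be tested (16 of the 19 probes), and 1 gene was called higher, with 0 called lower, by limma (adjusted p under 0.05). Over all 6289 named genes tested, 1.13% were called higher and 0.382% lower. By probe, 2 of the 16 were called higher, both of Ssr4, and 0 lower, against 1.06% and 0.325% of all 11073 tested probes. Before adjustment 4 of the 9 genes had a higher signal and 0 a lower one at p under 0.05 in limma, against 9.03% and 5.8% of all named genes. The median log2 difference of the 9 was 0.38, and that of all named genes was -0.0086. The means of 7 genes were higher and those of 2 lower in the aged, whereas 48.6% of all named genes had a higher mean. All log2 signals are after quantile normalization, each gene is represented by its brightest tested probe unless said otherwise, and differences are aged minus young. In bulk samples such as these, more cells with a transcript and more transcript per cell cannot be told apart.

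**Figure D1:**
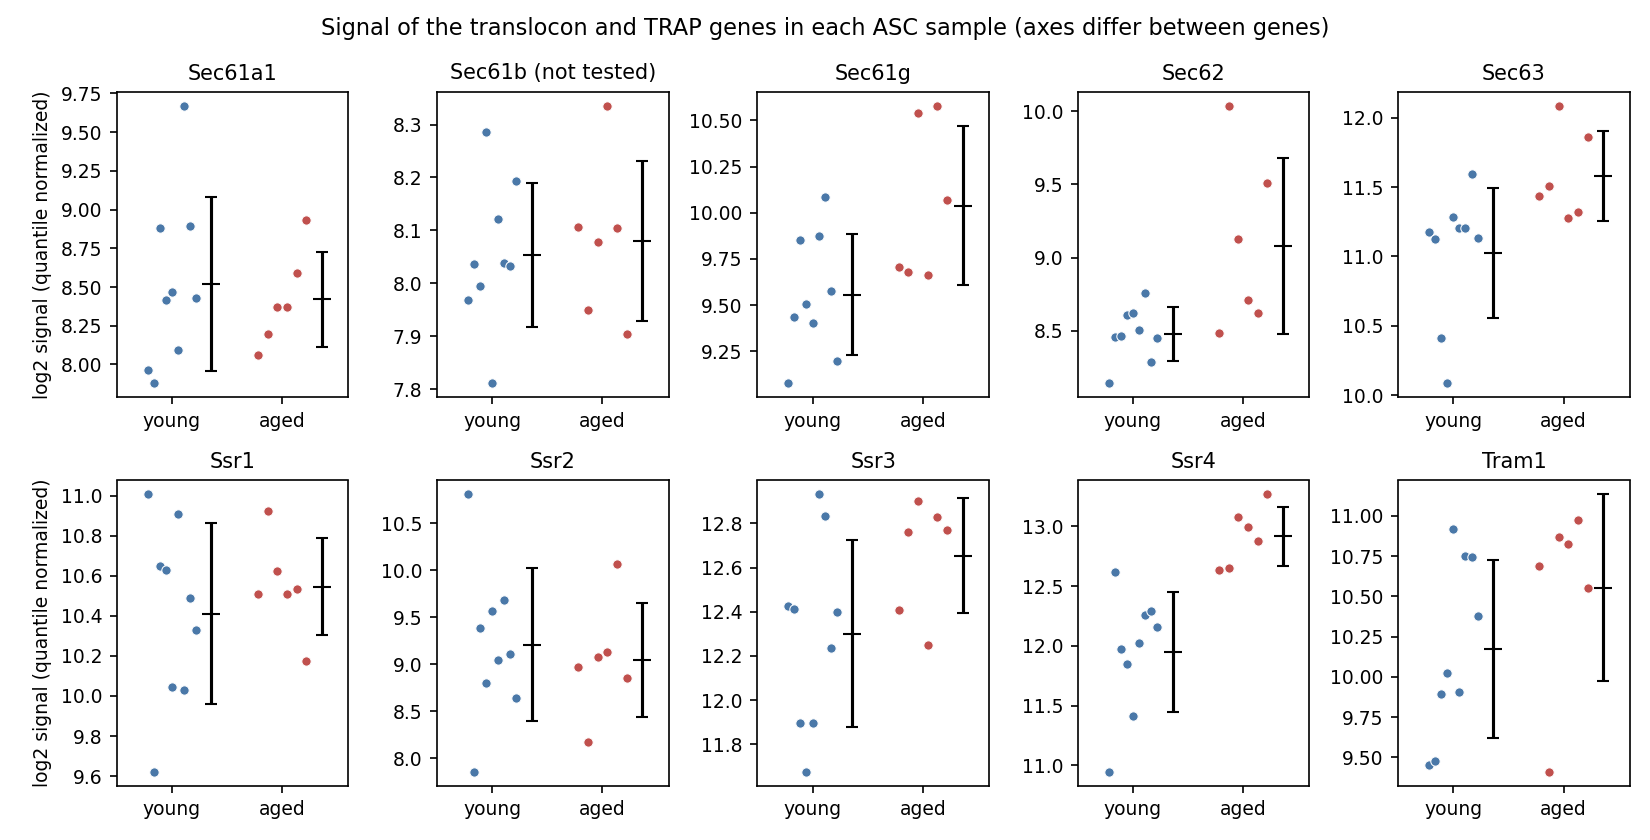
Each point is the quantile normalized log2 signal of 1 sample (9 young in blue, 6 aged in red), shown for the brightest tested probe of each of the 10 genes (for Sec61b its single probe, which was not tested), with the mean and SD in black. The aged samples of Ssr4 lie between 12.63 and 13.27, all above the young samples, and the groups overlap in the other 9 genes.

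Among the genes of the channel itself, Sec61g had the larger difference. Its log2 signal was 9.08 at the lowest, 9.51 at the median and 10.08 at the highest of the 9 young samples, and 9.66, 9.89 and 10.58 in the 6 aged samples. The 6 aged samples all exceeded the young median, and 2 exceeded the highest young sample. The difference was 0.48 (95% confidence interval 0.035 to 0.93, unadjusted p = 0.0359, adjusted p = 0.314 from limma). Aged samples 3 and 5 were the highest, with 10.54 and 10.58.

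Sec61a1, the pore-forming subunit, gave a dim signal above background in 6 of the 9 young samples and 4 of the 6 aged. The young samples ranged from 7.88 to 9.67 with a median of 8.43, and the aged from 8.06 to 8.93 with a median of 8.37. The groups overlapped throughout, with a difference of -0.10 (95% confidence interval -0.58 to 0.37, adjusted p = 0.896 from limma). The highest of all samples was young sample 7, and without it the difference was 0.042. The other probe of Sec61a1 was above background in 0 young samples and 5 aged samples and failed the filter. Its mean log2 signals were 8.03 and 8.26, and no fold is given because the young samples offer only an upper bound that lies as high as the aged mean. Sec61b was above background in 1 young sample and 1 aged sample (mean log2 signals 8.05 and 8.08), so its level was not measurable with this probe.

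Sec62 and Sec63 had the next largest differences after Ssr4. The log2 signal of Sec62 was 8.14 at the lowest, 8.47 at the median and 8.76 at the highest of the young samples. In the aged it was 8.48, 8.92 and 10.04. The probe was dim, above background in 7 of the 9 young samples and in all 6 aged. The young samples were tightly grouped near background (SD 0.18, n = 9), so their narrow spread may not be that of the transcript. The aged were spread widely (SD 0.60, n = 6), with aged samples 2 and 6 far above the rest at 10.04 and 9.51. The difference was 0.60 (95% confidence interval 0.16 to 1.05, unadjusted p = 0.0106, adjusted p = 0.18 from limma), and without aged sample 2 it was 0.41. Its size depended on the processing. With background correction it was 1.22 (adjusted p = 0.185 from limma), larger than that of Ssr4 under the same correction (1.02).

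Sec63 was brighter and was measured by 3 probes. At its brightest probe (ILMN_2714822) the young samples had a lowest log2 signal of 10.09, a median of 11.17 and a highest of 11.60, and the aged samples had 11.28, 11.47 and 12.09. All 6 aged samples were above the median of the young, and 2 of the 9 young samples were above the lowest aged sample. Young samples 3 and 4, those measured on 2 arrays each, were the lowest at 10.41 and 10.09. The difference was 0.55 (95% confidence interval 0.096 to 1.01, unadjusted p = 0.0202, adjusted p = 0.243 from limma). Its further probes gave 0.57 and 0.55 (adjusted p = 0.187 and 0.231 from limma). The 3 probes read 1 gene in the same samples and are not separate evidence.

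Of the TRAP genes, Ssr4 was the one that passed the test. At its brighter probe (ILMN_2773447) the 9 young samples had log2 signals from 10.95 to 12.62 with a median of 12.02. The 6 aged samples had 12.63, 12.65, 13.08, 12.99, 12.88 and 13.27. Every aged sample was above every young sample, although young sample 2 (12.62) and aged sample 1 (12.63) were almost level. Such complete separation in this direction occurred at 0.443% of all tested probes. The means were 11.95 ± 0.50 (SD, n = 9) in the young and 12.92 ± 0.25 (SD, n = 6) in the aged, a difference of 0.97 (95% confidence interval 0.54 to 1.41, adjusted p = 0.022 from limma), which is a fold of 1.96 (95% confidence interval 1.45 to 2.65).

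The second probe of Ssr4 (ILMN_1255237) gave the same picture. Its young samples ranged from 10.37 to 12.27 with a median of 11.47, and its aged samples from 12.20 to 12.57 with a median of 12.37. Young sample 2 again lay with the aged, above the lowest of them. The difference was 0.95 (95% confidence interval 0.51 to 1.38, adjusted p = 0.0263 from limma), which is 1.93-fold. Both calls lie near the threshold. The adjusted p of the brighter probe was 0.0686 without aged sample 3, 0.0557 without aged sample 4 and 0.0758 without aged sample 6, while the difference was 0.94, 0.96 and 0.90.

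The difference in Ssr4 was visible before normalization. The deposited signal at the brighter probe ran from 1572 to 6503 over the 11 young arrays. On the 6 aged arrays it was 10150, 7551, 11250, 5562, 6361 and 8288. Before normalization young sample 2 (6503) was above aged samples 4 and 5, so the complete separation of the groups is that of the normalized values. The repeat arrays of young sample 3 gave 4904 and 4827, and those of young sample 4 gave 4091 and 3984.

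The other TRAP genes varied. Ssr3, the gamma subunit, was bright, with young samples from 11.68 to 12.93 (median 12.40) and aged samples from 12.25 to 12.90 (median 12.77). Its difference of 0.35 (95% confidence interval -0.041 to 0.75) did not pass the test (unadjusted p = 0.0764, adjusted p = 0.419 from limma), and the highest sample was a young one. A second probe of Ssr3, above background in 1 young sample and 5 aged samples, was not tested (mean log2 signals 8.02 and 8.26).

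Ssr1, the alpha subunit, had young samples from 9.62 to 11.01 (median 10.49) and aged samples from 10.17 to 10.92 (median 10.52). The aged range lay wholly within that of the young. The difference was 0.14 (95% confidence interval -0.31 to 0.59, adjusted p = 0.837 from limma), and 2 dimmer probes gave -0.10 and -0.08 (adjusted p = 0.841 and 0.788 from limma).

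Ssr2, the beta subunit, was the most variable, with young samples from 7.86 to 10.81 (median 9.10) and aged samples from 8.18 to 10.06 (median 9.02). The difference was -0.17 with a wide interval (95% confidence interval -0.88 to 0.55, adjusted p = 0.885 from limma), and it was 0.034 without young sample 1, which had the highest value. These intervals still hold increases of up to 0.75, 0.59 and 0.55 for Ssr3, Ssr1 and Ssr2, so the arrays do not show that the 3 genes were level with age.

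Tram1 had young samples from 9.45 to 10.92 (median 10.03) and aged samples from 9.41 to 10.98 (median 10.76). Among the aged, 5 samples exceeded the young median, and aged sample 2 was the lowest of all. The difference was 0.38 (95% confidence interval -0.19 to 0.96, adjusted p = 0.589 from limma). Further Tram1 probes gave 0.30 and 0.34 (adjusted p = 0.714 and 0.393 from limma).

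**Figure D2:**
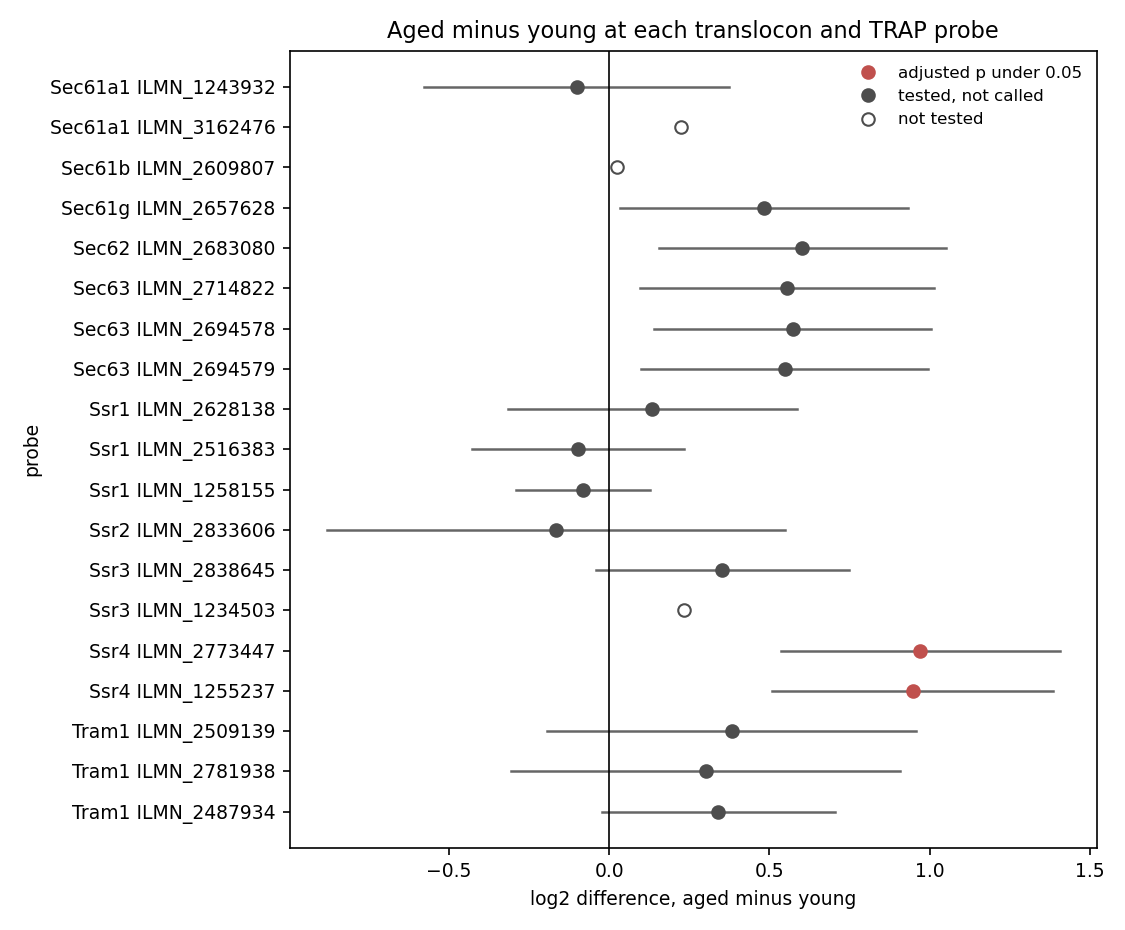
Each row is 1 of the 19 probes, and the x axis is the log2 difference, aged minus young, with its 95% confidence interval from limma (open circles are probes that failed the filter and have no interval). The intervals of both Ssr4 probes lie highest, from 0.51 to 1.41 together, those of Sec61g, Sec62 and the 3 Sec63 probes lie above 0 but did not pass after adjustment, and the other tested probes have intervals that include 0.

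Counted by sample, young samples were above the median of all 15 samples in 1 to 6 of the 9 tested genes, and aged samples in 4 to 9. Aged sample 5 was above it in 9 of 9 genes and aged sample 3 in 7. Young samples 2, 4 and 9 were above it in 1 gene each. The ranges overlapped, since young samples 3, 5, 7 and 8 were above it in 4, 5, 6 and 4 genes.

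The shift of Ssr4 was also set against that of each other gene by taking, within each sample, the log2 signal of Ssr4 minus that of the other gene, and comparing the group means of these 8 values. Ssr4 was picked for its own difference in these samples, so the values are a description with no test. Relative to the other TRAP genes Ssr4 was higher in the aged by 0.62 for Ssr3, 0.84 for Ssr1 and 1.14 for Ssr2. The value for Ssr2 leaned on young sample 1, at 0.14, while the other young samples had 1.84 to 4.76. Ssr2 was above background in 8 young and 5 aged samples. The groups overlapped in each, with values relative to Ssr3 from -1.48 to 0.21 in the young and from -0.11 to 0.74 in the aged. Relative to the channel subunits the shift was 1.07 for Sec61a1, whose probe was not above background in 3 young and 2 aged samples, and 0.49 for Sec61g. It was 0.59 relative to Tram1. The smallest shifts were those relative to Sec63, 0.42, and to Sec62, 0.37. The Sec62 probe was dim, above background in 7 young samples, and that shift depended on the processing. With background correction Sec62 itself differed by 1.22 and Ssr4 by 1.02. Young sample 2, the young sample with the most Ssr4, was above all aged samples relative to Sec61a1, with 4.74 against an aged range of 4.29 to 4.71. Sec61a1 was not above background in that young sample (7.88), so its 4.74 is set against a background value.

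**Figure D3:**
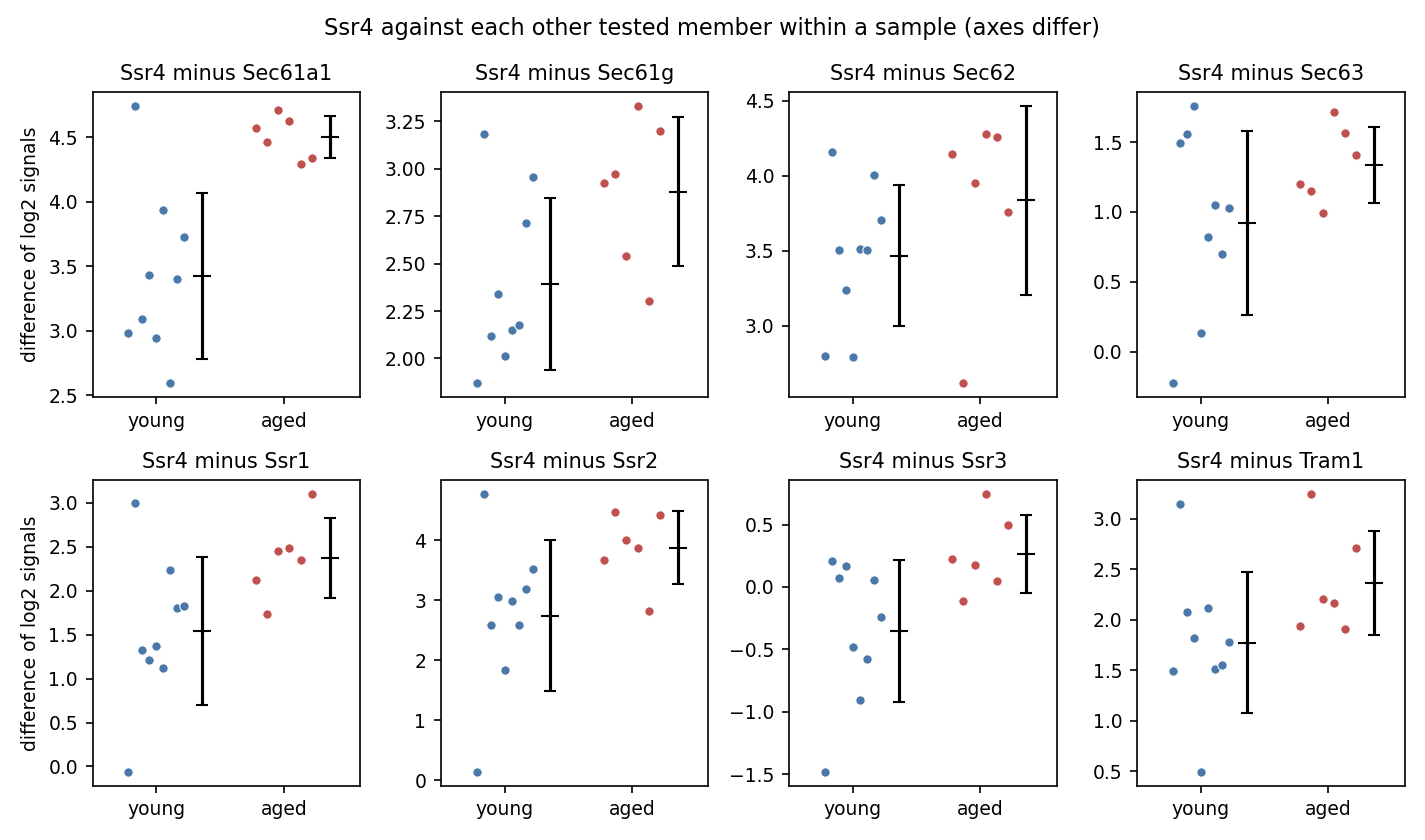
Each point is the log2 signal of Ssr4 minus that of another gene in 1 sample (9 young in blue, 6 aged in red), with the mean and SD in black. The height of each axis depends on the brightness of the probes and carries no meaning of its own. The shift between groups is largest for Ssr2 (1.14) and Sec61a1 (1.07) and smallest for Sec62 (0.37). The probes of these genes were not above background in every sample, and the Ssr2 shift leans on young sample 1 (0.14).

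Across samples, the genes of the set did not follow Ssr4 closely. With each group's mean taken out, the Pearson r with the brighter Ssr4 probe over the 15 samples was 0.945 for its second probe, 0.415 for Sec61g, 0.354 for Sec61a1, 0.256 for Ssr3, 0.188 for Tram1, 0.169 for Sec63 and 0.145 for Sec62. It was negative for the TRAP partners Ssr1 (-0.584) and Ssr2 (-0.618), where young samples 1 and 2 lay at opposite ends. Young sample 1 had the lowest Ssr4 of the young (10.95) and the highest Ssr1 (11.01) and Ssr2 (10.81). Young sample 2 had the highest Ssr4 (12.62) and the lowest Ssr1 (9.62) and Ssr2 (7.86, not above background). Whether the negative r held without these samples was not tested. Among all other tested genes the highest was Ern1 (r = 0.913), which encodes the ER stress sensor that splices Xbp1 mRNA, followed by Bsdc1 (0.844), Stk17b (0.837), Cyp4f16 (0.824) and Cd300ld3 (0.808). These values are descriptions from samples that share array processing. Ern1 was itself higher in the aged. Its young samples ranged from 8.56 to 9.77 (median 9.17) and its aged samples from 10.18 to 10.92 (median 10.47), with no overlap and a difference of 1.24 (adjusted p = 0.00581 from limma). Young sample 2 was the highest young sample for Ern1 as it was for Ssr4. The other 4 of these genes differed by -0.44 to 0.17 and did not pass the test (adjusted p = 0.457 to 0.972 from limma). Idh3g, the neighbour of Ssr4, had a difference of -0.21 (adjusted p = 0.69 from limma) at its brighter probe and -0.48 (adjusted p = 0.595 from limma) at the other, and it was added after its values were seen.

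The steps of protein entry that surround the translocon were read from 8 gene lists. Counting each gene once, 52 genes of these lists were tested, of which 5 were called higher in the aged and 0 lower (adjusted p under 0.05, limma), against 1.13% and 0.382% of all named genes. Before adjustment 20 were higher and 0 lower at p under 0.05 in limma, against 9.03% and 5.8%. Their median difference was 0.41, close to that of the translocon and TRAP genes, and 44 had a higher mean in the aged, against 48.6% of all named genes.

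Before the channel, the signal recognition particle and its receptor bring the ribosome to the ER. None of 7 tested genes was called (0 higher, 0 lower), and their median difference was 0.35. Srp14 had a difference of 0.37 and Srpr, the receptor, one of 0.49 (adjusted p = 0.403 and 0.452 from limma). Behind the channel, signal peptidase cuts the signal sequence. Of its 5 tested genes, 1 was called higher. Spcs1, a small subunit of the complex, had young samples from 10.66 to 11.95 (median 11.05) and aged samples from 12.12 to 12.58 (median 12.20). The groups did not overlap, and the difference was 1.14 (standard error 0.20, adjusted p = 0.00919 from limma), slightly above that of Ssr4. The median of the list was 0.50.

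The oligosaccharyltransferase, which adds sugar chains to the entering protein, had 8 tested genes, 1 of them called higher. Magt1, an accessory subunit with a role in disulphide chemistry, rose from a young range of 7.91 to 8.58 to an aged range of 8.68 to 9.18 (difference 0.62, adjusted p = 0.0388 from limma), and its signal exceeded background in 6 young samples and 6 aged samples. The median of the list was 0.55, and 8 of 8 genes had a higher mean in the aged. The BiP cycle, in which Hspa5 (BiP) is handed to the entering chain through Sec63 and other J-domain proteins, had 0 of 5 genes called. Dnajb9 had a difference of 0.57, Dnajc3 one of 0.64 and Hspa5 one of 0.43 (adjusted p = 0.168, 0.178 and 0.419 from limma), and the median was 0.43.

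Among paralogs and other translocon partners 0 of 11 genes were called, with a median of 0.43. Ccdc47, part of a complex for proteins with several membrane spans, had a difference of 0.65 and Ckap4, a protein of ER sheets, one of 0.68 (adjusted p = 0.149 and 0.225 from limma). Other routes of insertion differed less. The ER membrane complex, which places membrane segments independently of Sec61, had 0 of 8 genes called and a median of 0.091, with Emc7 at 0.38 and Emc9 at 0.20 (adjusted p = 0.296 and 0.645 from limma). The genes for tail-anchored proteins had 0 of 3 called and a median of -0.11, with Get1 at 0.52 and Get4 at -0.30 (adjusted p = 0.346 and 0.782 from limma). The lists were not tested against one another.

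The list of Xbp1 and immunoglobulin secretion had the largest median, 0.91, with 3 of 6 genes called higher. These were Ern1 and the following genes. Mzb1, an ER protein that helps to assemble immunoglobulin, rose by 1.17 (adjusted p = 0.0152 from limma), with young samples from 8.31 to 9.67 and aged samples from 9.46 to 10.57. Xbp1 rose by 0.82 (adjusted p = 0.0499 from limma, barely under the threshold), with young samples from 10.23 to 11.64 and aged samples from 11.46 to 12.03. Its highest young sample was young sample 2, the 1 young sample above the lowest aged one. Other young samples ran alike in Xbp1 and Ssr4 only in part, which is a description with no test. Young sample 5 was next highest for Xbp1 (11.43) but had an Ssr4 of 11.415, below the young median of 12.02. Young sample 6 had the lowest Xbp1 (10.23), with Ssr4 at that median. Young samples 7 and 8 were above the young median of both genes (Xbp1 10.98 and 11.04, Ssr4 12.26 and 12.29). Young samples 3 and 4 were below both medians (Xbp1 10.65 and 10.62, Ssr4 11.97 and 11.845). Young sample 9 was below the median for Xbp1 (10.64) and above it for Ssr4 (12.16).

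**Figure D4:**
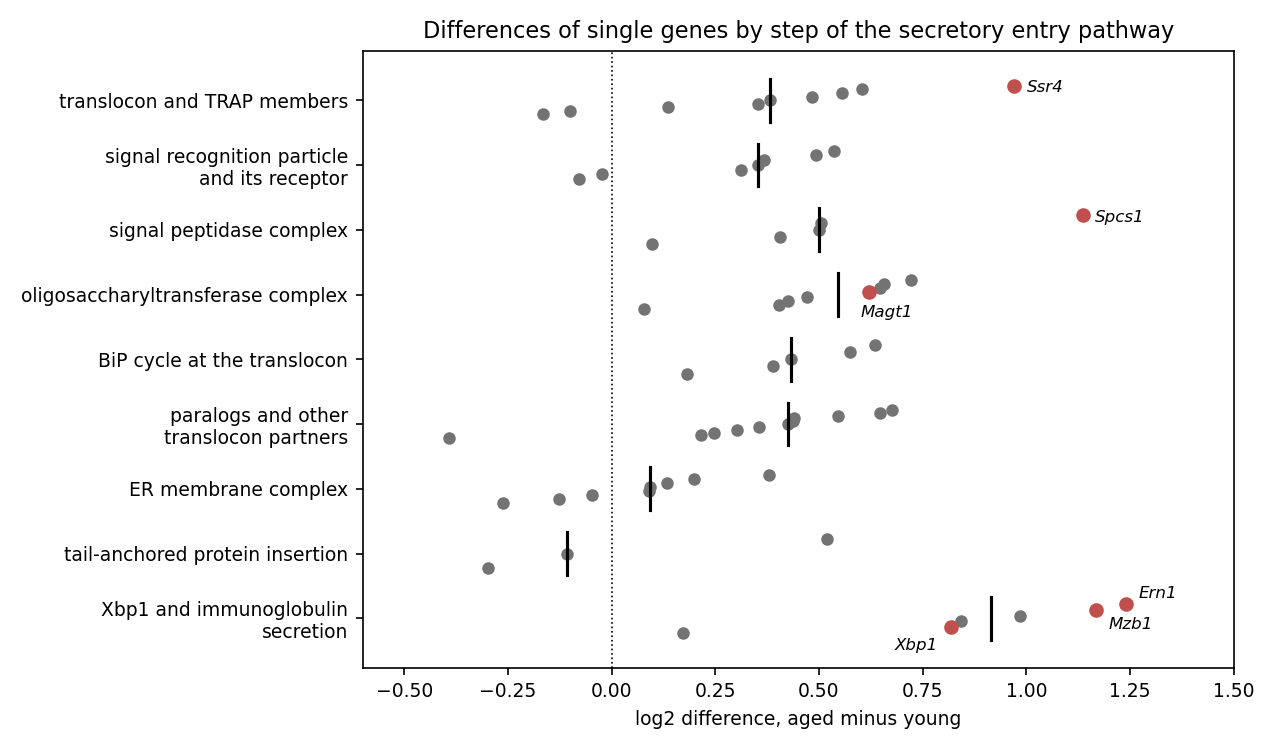
Each point is 1 tested gene, placed by its log2 difference, aged minus young, and grouped by step of the pathway. Vertical bars are list medians and red points are genes called at an adjusted p under 0.05 from limma. Ssr4, Spcs1, Magt1, Ern1, Mzb1 and Xbp1 were called, and the medians run from -0.11 for tail-anchored insertion to 0.91 for Xbp1 and immunoglobulin secretion.

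Markers of plasma cells and of precursor B cells also differed between the groups. The label was checked against plasma cell markers. Jchain was detected in all samples, whereas Sdc1, which encodes the CD138 of the sort, was found above background in 1 young sample and 5 aged samples. All 14 plasma cell markers were on the array, and 13 were tested, of which 3 were called higher (Creld2, Mzb1 and Xbp1) and 0 lower, against 1.13% and 0.382% of all named genes. Mzb1, Xbp1, Prdm1, Irf4, Jchain and Sdc1, the last not tested, stand in this list and in that of immunoglobulin secretion. The mean log2 signal of the tested markers was 9.12 to 9.55 per young sample and 9.45 to 10.39 per aged sample. Of 7 tested markers of precursor B cells, 5 were called lower and 0 higher (Dntt, Igll1, Myb, Rag1 and Vpreb1), against 0.382% and 1.13% of all named genes, with means of 9.52 to 10.43 in the young and 8.79 to 9.11 in the aged. Among 7 further lists (mature B cells, T and NK cells, neutrophils, monocytes and macrophages, erythroid cells, basophils and mast cells, and dendritic cells) 0 genes were called higher or lower, against the same shares. In that order 3, 2, 9, 4, 5, 6 and 5 genes were tested, too few for 0 calls to show these cells level with age. The list medians ran from -0.41 for basophils and mast cells, with 0 of 6 means higher in the aged, to -0.096 for T and NK cells. No annotated marker of any list was undetected in all samples, and 8 of 9 neutrophil markers were detected in all 15. The mean log2 signal of the neutrophil markers was 10.77 to 11.66 per young sample and 10.63 to 11.77 per aged sample. In both groups that range lay above the range of the plasma cell markers. Brightness also depends on the probe, so these means do not give shares of cells. The part of any of these cell types in the Ssr4 difference between the groups was not tested. The relations given next lie within an age group and do not test it.

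Within an age group Ssr4 could be set against these marker means, in 4 relations. For the plasma cell mean, r was 0.0999 in the 9 young (permutation p = 0.799, exact, Spearman rho = 0.35, exact p = 0.359) and 0.62 once the 2 samples with the most extreme marker means were left out. In the 6 aged it was 0.609 (exact permutation p = 0.207, rho = 0.6, exact p = 0.242), and 0.397 without such samples. For the precursor B cell mean, r was -0.693 in the young (exact permutation p = 0.0393, adjusted p = 0.157 over the 4 relations, rho = -0.583, exact p = 0.108) and 0.0352 without the 2 farthest samples, so that relation rested on them. In the aged r was -0.201 (exact permutation p = 0.751, rho = 0.0857, exact p = 0.919) and 0.999 without the 2 farthest samples, which leaves 4 samples. None of the 4 relations passed after adjustment (adjusted p = 0.157 to 0.799 for r and 0.432 to 0.919 for rho).

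The arrays differed in brightness. The median deposited signal per array was 105 to 355 in the young and 152 to 267 in the aged. Young samples had 8998 to 15864 detected probes and aged samples 10401 to 17120, a mean difference of 1183 that lay within the spread of the samples (exact permutation test, two-sided, p = 0.333). Young sample 1 and aged sample 1 had the dimmest arrays of their groups. With both left out, Ssr4 had a difference of 0.90 (adjusted p = 0.0349 from limma). The number of samples limits the precision of every value. The p-values set a difference against the spread between these samples, some of which may be pools of mice.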

How the data were processed

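Average probe intensities per array, with no background subtraction and no normalization, were deposited by the authors. They gave GEO a second set for 26509 probes, intensities after quantile normalization and not on a log scale. Each intensity comes with a detection p-value, likewise deposited by the authors. RNA was amplified, biotin labelled and hybridized by the authors. The scanner software and the slide of each array are not given in the sources used here. The 17 arrays hold 15 samples, because young samples 3 and 4 were measured on 2 arrays each. All sample columns were used.

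Intensities of 45281 probes underwent quantile normalization (limma 3.58.1, R 4.3.3) and log2 transformation, and repeat arrays were averaged. The filter kept 11073 probes, those detected (detection p-value under 0.05) in no fewer than 7.5 of 15 samples whose highest and lowest samples differed 1.2-fold or more. The group difference was fitted in lmFit, followed by eBayes with its trend option, as a two-sided test. P-values were adjusted by Benjamini-Hochberg over the kept probes, at a threshold of 0.05. In the platform annotation 20873 probes name 1 gene and 9 name several, and 8638 of the kept probes name 1 gene. Probe sequences were not used here, so cross-hybridization to paralogs was not checked. Between any 2 samples of a group r was 0.762 to 0.928, and between repeat arrays 0.91 and 0.917. The authors' normalized intensities had medians of 286 to 296 per array and correlated with those computed here at r of at least 0.99944 on the log2 scale, with differences of at most 0.187.

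The members and gene lists were chosen with earlier results of these data known. Named are every member, the called genes of each list or, where none was called, the 2 with the smallest p, then Xbp1, Hspa5 and Mzb1, and the 5 genes most like Ssr4. Alternatives changed the scaling, background correction, source of values, filter, repeat arrays, moderation, weights, test, replicate block and samples. Reading and drawing used R's data.table (version 1.17.8) and, in Python 3.11.15, pandas 2.3.3 and matplotlib 3.10.9.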

Additional observations from a re-analysis of the deposited data

Results flagged for a closer look

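Among 32 checks for a sample far from the others of its group, 2 were positive, and chance gives about 1 in 20. At a dim probe of Ssr1 (ILMN_2516383) young sample 5 had a log2 signal of 9.28, while the next highest young sample had 8.56, so that the gap was 0.52 of the range of the group. At the brightest probe of Tram1 (ILMN_2509139) aged sample 2 had 9.41, the lowest of all 15 samples, while the next lowest aged sample had 10.55 (gap 0.73 of the range). Neither gene passed the test with age.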

How the results depend on the processing

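Ssr4 was higher in the aged under every alternative, by 0.85 to 1.18 at the brighter probe, but its call was not kept under all of them. The adjusted p was 0.1005 with no filter on dim probes and 0.057 with the methods' t-test, and the number of genes of the set called was 0 in both. With array weights it was 2 (Sec63 was added, 0.80, adjusted p = 0.0421 from limma), and leaving out 1 sample gave 0 (without aged sample 3, 4 or 6) to 1. The second Ssr4 probe was not called with 75th percentile scaling (adjusted p = 0.0509), with no filter (0.1399), with the t-test (0.0569) or without aged sample 1 (0.0558), 3 (0.0821), 4 (0.0618) or 6 (0.0766). When 1 sample was left out, the difference of Sec61a1 ran from -0.20 to 0.042 (without young sample 7) and that of Ssr2 from -0.37 to 0.034 (without young sample 1), with 0.0077 without aged sample 2. Ssr2 was 0.049 without young sample 1 and aged sample 1 together, an alternative chosen after seeing the data. Of all tested probes 153 were called (117 higher, 36 lower). The number was 89 with 75th percentile scaling (82 higher, 7 lower, 92.1% higher against 76.5%), 45 with no filter, 335 with detection in all samples of a group, 702 with array weights, 99 with the methods' t-test, 68 without young sample 1 and aged sample 1, and 40 (without aged sample 3) to 317 (without aged sample 2) when 1 sample was left out. Scaling to the 75th percentile moved the median of all probes from -0.011 to 0.055. For the pathway lists, 5 calls became 3, 1, 8, 13 and 2 with 75th percentile scaling, no filter, detection in all samples of a group, array weights, and without young sample 1 and aged sample 1, and 2 to 6 when 1 sample was left out. There were 4 pathway calls with background correction, with the authors' normalized values and with the first of the repeat arrays. The difference in detected probes was 414 to 1758 when 1 sample was left out. The methods' t-test at an unadjusted p under 0.05 called 1492 probes and 4 genes of the set. The causes of these changes were not tested.

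The deviations of same-numbered samples correlated at r = 0.183 and 0.232 for numbers 1 and 2, where each aged sample was also the best match of its own number, and at -0.0961 to -0.0202 for the other 4 numbers. As not every pair was positive and no label ties the numbers to shared animals, they were not taken to pair the samples. With the replicate number as a block over samples 1 to 6 of each group, 59 probes, 1 gene of the set and 2 genes of the pathway lists were called. Under the block Ssr4 had an adjusted p of 0.0474 (second probe 0.0701), and Sec61a1 had a difference of 0.14.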
